A study of Mus musculus with 6 samples.

Results

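The genes described here encode 10 proteins of the smooth muscle contractile apparatus that also mark myofibroblasts, the contractile, matrix-producing cells of scarring tissue: Acta2, Actg2, Myl9, Myh11, Tpm1, Tpm2, Cald1, Cnn1, Tagln and Des. They were selected by symbol, with earlier results of these data known. All 10 were present among the 22183 genes measured and passed the filter on low counts that left 14432 genes for testing. RNA was sequenced from whole mouse kidney in 6 libraries. Controls, 3 libraries, were from mice that received pcDNA3, a plasmid with no insert. The other 3, called Wnt1 below, came from mice labelled as overexpressing the Wnt1 gene after a plasmid for it, and Wnt1 encodes a secreted protein that activates Wnt/beta-catenin signalling. The labels give 1 batch for every library and no strain, age, sex, injury procedure, time after delivery or cell type that took up the plasmid. They do not state that the libraries are separate animals. The p-values therefore weigh the groups against the scatter of these libraries alone, some or all of which could be technical.

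Contraction of smooth muscle and of myofibroblasts rests on bundles of actin filaments pulled by myosin. Tropomyosins, caldesmon, calponin and transgelin sit along the actin filament and set its stability and its access to myosin, and desmin anchors the bundles to the rest of the cytoskeleton. Many of these genes are driven by serum response factor (SRF), which binds a motif called the CArG box, together with the coactivators myocardin and the myocardin-related factors. In normal kidney arterial smooth muscle, pericytes and mesangial cells make these proteins, and some of the genes, such as Tpm1 and Cald1, also have non-muscle forms. In scarring kidney, alpha smooth muscle actin (Acta2) is the usual marker of myofibroblasts.

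Of the 10 genes, 7 rose with Wnt1 (edgeR quasi-likelihood test, adjusted p under 0.05) and 1 was called lower, against 22.4% of all tested genes called higher, 18.7% called lower and 41.1% called in either direction. The genes that rose were Acta2, Actg2, Myl9, Tpm1, Tpm2, Cald1 and Tagln. Myh11 was called lower on this scale, and Cnn1 and Des were not called. The median log2 fold change was 1.33 over the 10 genes and 0.05 over all tested genes. CPM below are counts scaled by library size and by TMM factors, which correct for composition. In CPM the groups did not overlap for 8 of the 10, 7 higher and 1 lower (Myh11). Over all tested genes they did not overlap for 53.5%, with 28.2% higher and 25.3% lower. In the authors' FPKM, scaled by transcript length and library total without TMM factors, the groups overlapped for Myh11 and did not for Des.

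Libraries held between 23585020 and 27218085 counts. The first principal component, with 77.7% of the variance, parted the groups, and the second, with 16.6%, separated both libraries numbered 3 from the remaining 4. The transgene did not check the labels, since Wnt1 had 1 read in Wnt1 replicate 2 and none in the other 5 libraries, and 3 reads would correspond to between 0.0951 and 0.138 CPM. Scaling mattered for small changes: with library totals in place of TMM factors, which correct for composition, the median over the tested genes moved to a log2 fold change of 0.47. In whole tissue, fewer cells of a type and less RNA per cell cannot be told apart. Kidney markers were abundant, and proximal tubule markers summed to between 20727 and 22839 CPM in controls and between 5622 and 7012 CPM with Wnt1.

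Promoter sequence is shown because SRF is a known regulator of this gene family. RefSeq windows from 250 bases before to 50 after the start site (GRCm38.p6) were found for 7 of the 10 genes, in 8 windows, and none for Tagln, Myh11 and Actg2. A CArG box was counted as CC, then 6 bases of which at least 5 are A or T, then GG, which reads the same way on both strands. Such a match stood in 2 of the 7 genes, Acta2 and Myl9, and in 9.98% of all 32851 promoter windows. The 4 matches are shown with 10 bases on each side, with the match in capitals.
Acta2, first base at -84 from the start site: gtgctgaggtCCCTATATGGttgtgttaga
Acta2, first base at -34: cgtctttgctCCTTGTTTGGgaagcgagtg
Myl9, first base at -161: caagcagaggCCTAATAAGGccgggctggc
Myl9, first base at -99: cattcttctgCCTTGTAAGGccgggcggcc

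The Acta2 windows lie on the minus strand at chr19:34255438-34255467 and chr19:34255388-34255417, and the Myl9 windows on the plus strand at chr2:156775293-156775322 and chr2:156775355-156775384. Both Acta2 windows also overlap an exon in the GENCODE M21 annotation, where a transcript starts further upstream. The match at -161 in Myl9 was the only one with A or T at all 6 central bases, a form that 1.63% of all windows held. The motif CATTCC, bound by TEAD factors and searched on both strands, stood in windows of Acta2, Cald1 and Tpm1 and in 14.7% of all windows. CTTTGA or CTTTGT, cores bound by the TCF/LEF factors of Wnt signalling, stood in none of the 8 windows and in 31.2% of all. These are matches of letters and show no binding.

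Both smooth muscle actins rose. Acta2 (ENSMUSG00000035783; chromosome 19, 34241090 to 34255590), the actin that fills the stress fibres of myofibroblasts, stood at 21.7, 20.0 and 22.5 FPKM in control replicates 1, 2 and 3. FPKM is the authors' level per transcript length and library total. With Wnt1 it stood at 81.3, 88.1 and 122 FPKM in replicates 1, 2 and 3. The lowest Wnt1 library was far above the highest control, and Wnt1 replicate 3 was the highest. On the CPM scale Acta2 went from 45.6 ± 2.63 to 156 ± 39.6 (SD, n = 3), or by 1.78 ± 0.19 (SE) on the log2 scale (edgeR adjusted p = 0.000277), and 8.46% of tested genes had a larger one.

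Actg2 (ENSMUSG00000059430; chromosome 6, 83512905 to 83536265), the actin of visceral smooth muscle such as the ureter wall, was rare throughout. It had 3, 7 and 2 counts in control replicates 1 to 3 and 28, 36 and 67 counts in Wnt1 replicates 1 to 3. The groups did not overlap, and the log2 fold change was 3.07 ± 0.60 (edgeR adjusted p = 0.00438), the largest of the 10 and, at so few control counts, the least precise. It was 2.23 without both libraries numbered 3, and 1.05 by limma on log2(FPKM + 1) with no filter, where the added 1 outweighs its control level. Acta2 and Actg2 share no run longer than 29 bases between their transcripts with the longest coding sequence, while Acta2 and the cytoplasmic actin Actg1 share 56. The sources used here do not say how reads that match several genes were divided.

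The myosin subunits parted. Myl9 (ENSMUSG00000067818; chromosome 2, 156775420 to 156781658), the regulatory light chain whose phosphorylation starts smooth muscle contraction, stood at 49.9, 34.7 and 48.1 FPKM in controls. With Wnt1 it stood at 81.6, 83.3 and 120 FPKM in replicates 1, 2 and 3. Every Wnt1 library exceeded every control, and the difference was 0.69 ± 0.22 on the log2 scale (edgeR adjusted p = 0.0361). The call was lost without control replicate 2 (adjusted p = 0.0624) or without Wnt1 replicate 3 (0.0516), where the log2 fold changes were 0.59 and 0.45.

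Myh11 (ENSMUSG00000018830; chromosome 16, 14194535 to 14291372), the smooth muscle myosin heavy chain and the most specific marker of differentiated smooth muscle, did not follow Acta2. It stood at 4.69, 4.55 and 3.58 FPKM in controls and at 4.19, 4.14 and 4.22 FPKM with Wnt1. On this scale the groups overlapped and the means, 4.27 ± 0.603 and 4.18 ± 0.0420 FPKM, differed by less than the control SD. On the CPM scale with TMM factors it went from 31.9 ± 4.09 to 23.5 ± 0.976, and it was called lower at -0.44 ± 0.14 on the log2 scale (edgeR adjusted p = 0.0386). With library totals the log2 fold change was -0.02 (adjusted p = 0.896), and the call was also lost without control replicate 1 or 2 or Wnt1 replicate 1 or 2.

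Both tropomyosins, the coiled coils that lie along the actin filament, rose in every Wnt1 library. Tpm1 (ENSMUSG00000032366; chromosome 9, 67022590 to 67049406) stood at 47.8, 45.7 and 45.1 FPKM in controls and at 196, 223 and 204 FPKM with Wnt1. Its mean FPKM was the highest of the 10 genes in both groups, although Myl9 exceeded it in control replicates 1 and 3, and its replicates were the tightest of those that rose. Its log2 fold change was 1.78 ± 0.12 (edgeR adjusted p = 4.38e-05), and it lay between 1.74 and 1.86 with any 1 library left out. Tpm2 (ENSMUSG00000028464; chromosome 4, 43514711 to 43523765) stood at 10.2, 7.99 and 10.3 FPKM in controls and at 29.0, 32.8 and 34.6 FPKM with Wnt1. It rose by 1.33 ± 0.16 on the log2 scale (edgeR adjusted p = 0.000509). Tpm1 makes many isoforms from muscle and non-muscle exons, and gene totals do not say which of them rose.

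The proteins that bind along the thin filament differed among themselves. Tagln (ENSMUSG00000032085; chromosome 9, 45929619 to 45936058), transgelin or SM22-alpha, an actin-bundling protein of early smooth muscle, stood at 22.0, 17.1 and 20.3 FPKM in controls. With Wnt1 it stood at 85.6, 105 and 124 FPKM, so the groups lay far apart. Its rise of 1.99 ± 0.18 on the log2 scale (edgeR adjusted p = 0.000158) was the largest after Actg2.

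Cald1 (ENSMUSG00000029761; chromosome 6, 34598500 to 34775473), caldesmon, which holds back myosin on the actin filament and has a muscle and a non-muscle form, rose with more scatter. It stood at 17.1, 14.5 and 10.5 FPKM in controls and at 49.0, 65.4 and 27.6 FPKM with Wnt1. The libraries numbered 3 were the lowest of their groups, yet the groups did not overlap. The log2 fold change was 1.33 ± 0.30 (edgeR adjusted p = 0.00905), and 1.41 (adjusted p = 7.48e-05) without both libraries numbered 3.

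Cnn1 (ENSMUSG00000001349; chromosome 9, 22099216 to 22109630), calponin of differentiated smooth muscle, was not called. It stood at 1.82, 2.05 and 1.51 FPKM in controls and at 2.13, 1.43 and 4.17 FPKM with Wnt1. Only Wnt1 replicate 3 lay well above the controls, and Wnt1 replicate 2 was below all of them. The log2 fold change was 0.29 ± 0.36 (edgeR adjusted p = 0.558), and it turned to -0.18 without Wnt1 replicate 3 and to -0.33 without both libraries numbered 3, neither of them called.

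Des (ENSMUSG00000026208; chromosome 1, 75360329 to 75368579), desmin, the intermediate filament of muscle, mesangial cells and pericytes, lay between these patterns. It stood at 6.60, 4.02 and 5.45 FPKM in controls and at 7.55, 11.5 and 12 FPKM with Wnt1. Every Wnt1 library was above every control in FPKM, but the groups overlapped in CPM. The log2 fold change was 0.53 ± 0.24 (edgeR adjusted p = 0.116). With library totals it was 0.95 and called (adjusted p = 0.0150), and it was called as well without Wnt1 replicate 1 (adjusted p = 0.0487) and in all 3 limma fits on FPKM, making 5 of 16 alternatives.

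**Figure D1:**
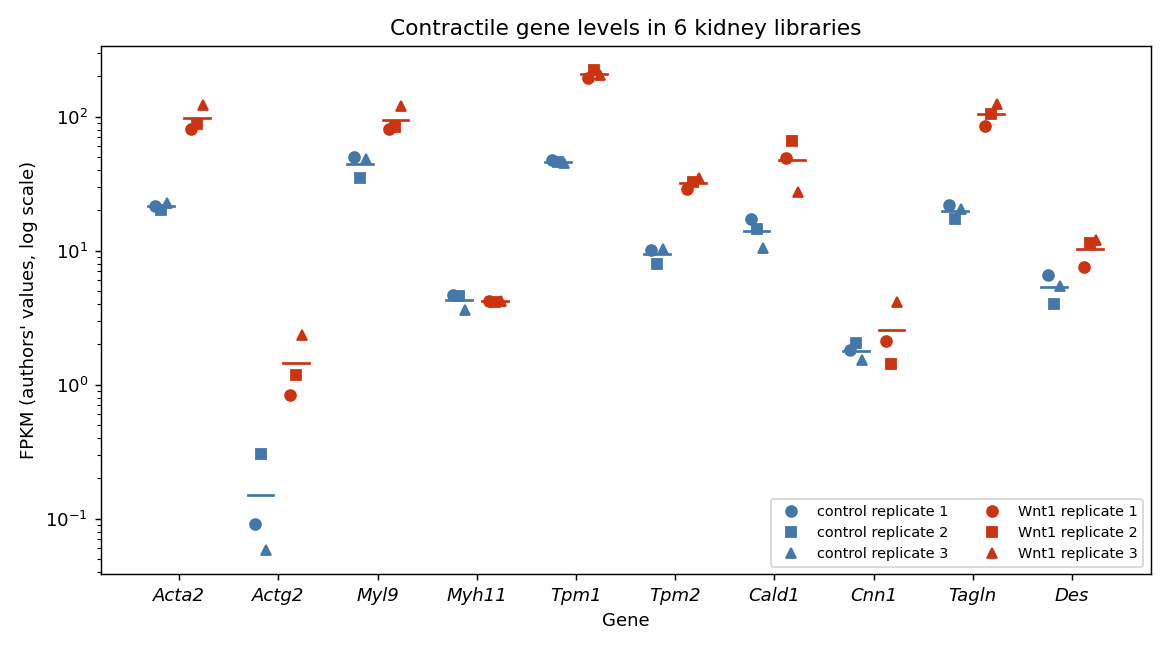
Levels of the 10 contractile genes in FPKM (log axis) in each control (blue) and Wnt1 (red) library, with bars at the group means. Acta2, Tagln, Tpm1, Tpm2 and Cald1 sit clearly higher with Wnt1, while the Wnt1 libraries of Myh11, at 4.14 to 4.22 FPKM, lie within the control range.

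The order of levels changed in its upper part. In controls Tpm1 led at 46.2 ± 1.41 FPKM, followed by Myl9 at 44.2 ± 8.29, Acta2 at 21.4 ± 1.25, Tagln at 19.8 ± 2.47 and Cald1 at 14.0 ± 3.34 FPKM. Below them came Tpm2 at 9.49 ± 1.3, Des at 5.36 ± 1.3, Myh11, Cnn1 at 1.79 ± 0.267 and Actg2 at 0.151 ± 0.134 FPKM. Neighbours whose control libraries overlapped were Tpm1 and Myl9, Acta2 and Tagln, and Des and Myh11. With Wnt1, Tpm1 at 207 ± 14.2 FPKM stood alone above Tagln (105 ± 19.1), Acta2 (97.3 ± 22.0) and Myl9 (94.8 ± 21.4), and neighbours among those 3 overlapped. The lower order was as in controls, with Cald1 at 47.4 ± 19.0, Tpm2 at 32.1 ± 2.83, Des at 10.3 ± 2.44, Myh11, Cnn1 at 2.58 ± 1.42 and Actg2 at 1.45 ± 0.796 FPKM. Cald1 overlapped Tpm2, and Cnn1 overlapped both Myh11 above and Actg2 below.

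Wnt1 replicate 3 was the highest Wnt1 library in FPKM for 8 of the 10 genes, all but Tpm1 and Cald1, whereas 49.7% of all tested genes were highest there. Markers of urothelium, the lining of the renal pelvis and ureter, summed to 98.3 CPM in that library, to 19.3 and 16.4 CPM in Wnt1 replicates 1 and 2, and to between 13.4 and 45.5 CPM in controls. Of the 7 urothelial markers, 1 was called (Krt5, higher, lost without control replicate 1 or 3) and none was at 0 in all libraries. Over all tested genes 22.4% were called higher and 41.1% in either direction. Adipocyte markers summed to 6.53 CPM in Wnt1 replicate 3 and 7.71 CPM in control replicate 2, and to at most 0.548 CPM in the other 4 libraries. Control replicate 2 held the highest control FPKM of Actg2 and Cnn1 and the lowest of Acta2, Tagln, Myl9, Tpm2 and Des. The part of tissue from the pelvis or its surroundings in these values was not tested.

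Ratios within a library do not depend on the scaling between libraries, and they set contractile genes against their non-muscle relatives. For 12 pairs, log2 ratios of FPKM were compared by an exact two-sided permutation test. With 3 libraries against 3 the smallest p it can give is 0.1, so no pair could pass 0.05, before or after adjustment. The groups did not overlap for 9 pairs, each at p = 0.1 in this exact test and 0.133 after Benjamini-Hochberg adjustment over the 12 pairs.

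Acta2 gained on Myh11 most. The ratio of Acta2 to Myh11 was 4.62, 4.41 and 6.28 in controls and 19.4, 21.3 and 29.0 with Wnt1, a log2 difference of 2.18. Acta2 also gained on Actb, the cytoplasmic beta-actin of all cells, with ratios of 0.0765, 0.0731 and 0.0738 in controls and 0.147, 0.137 and 0.153 with Wnt1 (log2 difference 0.97). Both groups were tight for this ratio, although Actb itself rose (0.80 ± 0.18, edgeR adjusted p = 0.00807). Tagln likewise gained on Tagln2, its relative in other cell types, by 0.82 on the log2 scale.

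The heavy chain, calponin and desmin went the other way. The ratio of Myh11 to Myh9, the heavy chain of non-muscle myosin, was 0.102, 0.0962 and 0.0736 in controls and 0.0386, 0.0313 and 0.0303 with Wnt1 (log2 difference -1.43). Cnn1 lost against Cnn2, a calponin of non-muscle cells (-1.61), and Des against Vim, the intermediate filament vimentin of mesenchymal cells and leukocytes (-1.27). In each of these 3 pairs the non-muscle gene rose, with log2 fold changes of 1.01 ± 0.14 for Myh9, 1.61 ± 0.16 for Cnn2 and 1.80 ± 0.15 for Vim (edgeR adjusted p = 0.00103, 0.000226 and 0.000106). Macrophages, which also make these genes, had 12 of 12 markers called higher, beside 22.4% of all tested genes. Their part in these ratios was not tested.

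For the other pairs the shift was small or the groups overlapped. Tpm1 gained slightly on Tpm2 (0.40 on the log2 scale, without overlap). Tpm2 against Tpm4, a tropomyosin of non-muscle cells, moved by -0.56 with overlapping groups, and Myl9 against Myl12a, a light chain found in most cells, by -0.05 with overlapping groups. Acta2 against Actg2 overlapped too (-1.33), with control ratios spread from 65.9 to 388 because of the few Actg2 counts.

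**Figure D2:**
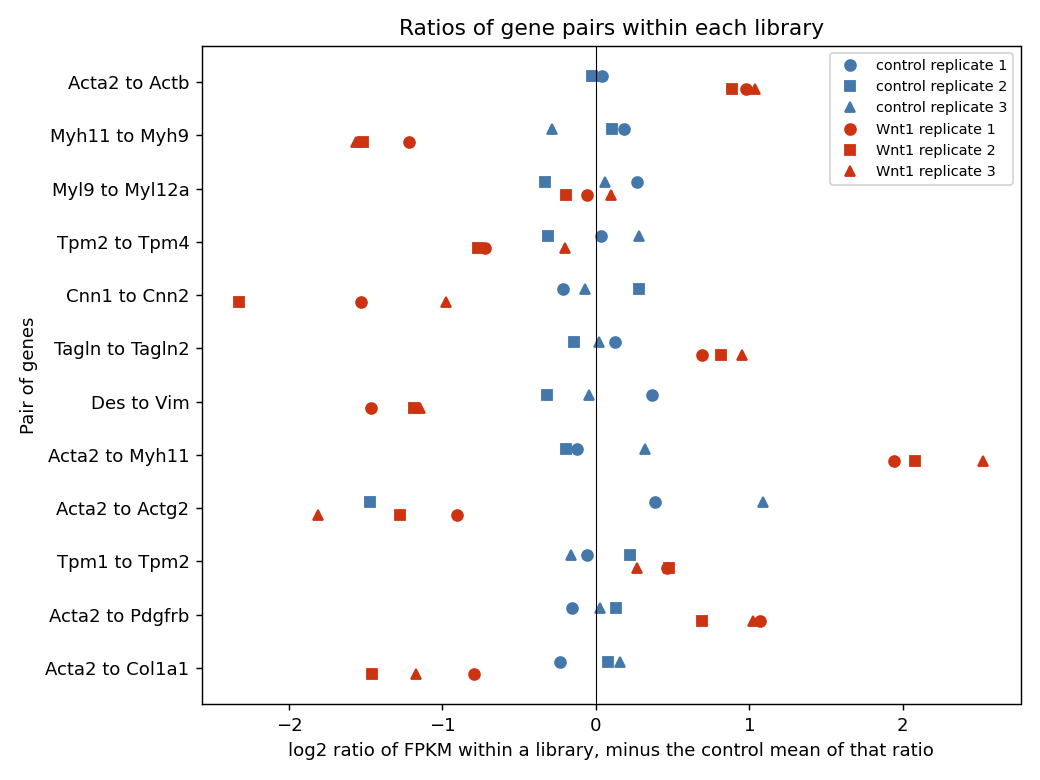
Log2 ratio of FPKM for 12 gene pairs in each library, shown relative to the control mean of that pair, with controls in blue and Wnt1 in red. Acta2 to Myh11 moves right by 2.18, Myh11 to Myh9, Cnn1 to Cnn2 and Des to Vim move left by more than 1, and Myl9 to Myl12a stays around 0.

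**Figure D3:**
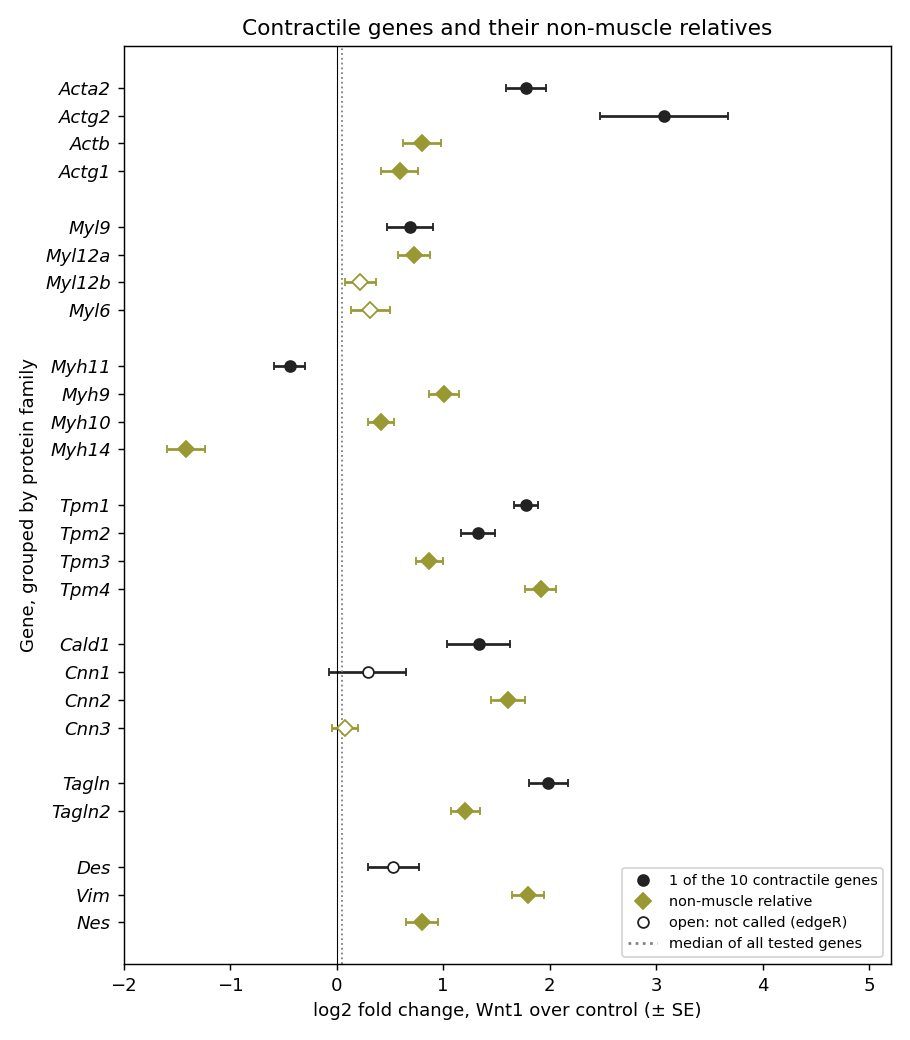
Log2 fold change, Wnt1 over control, with its standard error for the 10 contractile genes (circles) and their non-muscle relatives (diamonds), grouped by protein family, with open symbols where edgeR made no call. Within the myosin heavy chains Myh9 lies at 1.01 and Myh11 at -0.44, and within the actins Acta2 lies at 1.78 and Actb at 0.80.

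Of 25 further genes of the smooth muscle apparatus, all tested, 9 were called higher and 3 lower (edgeR), with a median log2 fold change of 0.34. Over all tested genes 22.4% were called higher, 18.7% lower and 41.1% in either direction. The share of this list called in either direction was near that background, but higher calls outweighed lower ones more than over all tested genes. In CPM the groups did not overlap for 13 of the 25 upward and 3 downward, beside 28.2% and 25.3% of all tested genes. With library totals 15 were higher and 1 lower, where 6348 of the 14432 genes were called higher. Those with the smallest p were linkers of actin to adhesions that many cell types share: the crosslinker Flna (2.09 ± 0.17), the actinin Actn1 (1.94 ± 0.12), Pdlim7 (1.75 ± 0.18) and vinculin, Vcl (1.03 ± 0.12). Mylk, the kinase that phosphorylates the light chain, was called higher at 0.36 ± 0.12 (edgeR adjusted p = 0.0416). Its call was lost in 6 of 16 alternatives, among them DESeq2 (adjusted p = 0.0584). Lmod1, an actin nucleator of smooth muscle, was called lower at -0.76 ± 0.21 (edgeR adjusted p = 0.0235), although its groups overlapped in FPKM. That call was lost in 8 of 16 alternatives, among them library totals (-0.33, adjusted p = 0.224). Smtn, smoothelin, stood at -0.01 ± 0.15 on the log2 scale (adjusted p = 0.955), and it was called higher with library totals at 0.40 (adjusted p = 0.0378), where the median of all tested genes was 0.47. Of the 15 non-muscle relatives, 11 were called higher and 1 lower, with a median of 0.80.

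Among regulators of these genes, the coactivators Myocd and Mrtfb and the TGF-beta ligands rose, and Srf was not called. Srf stood at -0.04 ± 0.16 on the log2 scale (edgeR adjusted p = 0.872), and its sign turned under library totals (0.38, adjusted p = 0.0586), where it was not called either. Myocd, myocardin, which drives the smooth muscle program, had 9, 13 and 4 counts in controls and 40, 55 and 28 with Wnt1, and rose by 1.85 ± 0.45 (adjusted p = 0.0123). Its relatives Mrtfb (0.53 ± 0.13, adjusted p = 0.0117) and Mrtfa (0.51 ± 0.19, adjusted p = 0.0642) had similar values, of which the first was called and the second was not. Mrtfa was called in 8 of 16 alternatives, with library totals at 0.93 (adjusted p = 0.0035), where the median of all tested genes was 0.47. Transforming growth factor beta is the classical inducer of Acta2, and all 3 of its ligand genes rose: Tgfb2 by 2.28 ± 0.24, Tgfb3 by 1.47 ± 0.25 and Tgfb1 by 1.26 ± 0.19 (edgeR adjusted p = 0.000264 to 0.00256). Other genes of this pathway, named after their values were seen, were mixed. The receptors Tgfbr1 (1.27 ± 0.42) and Tgfbr2 (1.05 ± 0.15) were called higher. Smad2 (0.37 ± 0.13), Smad3 (0.37 ± 0.14), Smad4 (0.05 ± 0.14), Smad7 (-0.15 ± 0.13) and Ccn2 (-0.15 ± 0.32) were not called. Activity of the pathway was not tested. Of 26 regulators, 13 were called higher and 0 lower, with a median of 0.64, beside 22.4% and 18.7% of all tested genes. With library totals 22 were higher, where 6348 of the 14432 genes were called higher.

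Marker lists of the cells that could hold these transcripts moved by different amounts. Of 11 tested fibroblast markers, 10 were called higher (median 2.50), and their summed level went from between 393 and 519 CPM in controls to between 1832 and 3042 CPM with Wnt1. Activated fibroblast markers were called higher in 12 of 12 (median 2.90), with the smallest p for the matrix proteins Tnc (3.80 ± 0.20) and Col12a1 (4.25 ± 0.23). Of 11 tested pericyte markers, 4 were called higher and 2 lower (median 0.21), beside 22.4% and 18.7% of all tested genes, with summed levels of 234 to 275 and 296 to 354 CPM. Most of the rise in this sum was Pdgfrb, which fibroblasts also make. It held 81.3, 62.3 and 77.0 CPM in controls and 98.6, 135 and 159 CPM with Wnt1. Rgs4 (1.54 ± 0.28) and Mcam (0.73 ± 0.13) rose, and the potassium channel subunits Abcc9 (-1.48 ± 0.20) and Kcnj8 (-1.23 ± 0.21) fell. Among 8 mesangial and juxtaglomerular markers, 2 were called higher and 1 lower, shares near those of all tested genes. The lower one was Plvap (-0.81 ± 0.24), a gene of fenestrated endothelium. The count of lower calls was 4 without Wnt1 replicate 3. It was 0 with library totals or without control replicate 3, Wnt1 replicate 1 or Wnt1 replicate 2. Among 10 endothelial markers, 0 were called higher and 4 lower. Without both libraries numbered 3, all 10 endothelial markers were called lower, and with library totals 1 was.

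Within libraries, Acta2 gained on Pdgfrb and lost against Col1a1. The ratio of Acta2 to Pdgfrb, a receptor of pericytes and fibroblasts, was 1.64, 2.01 and 1.86 in controls and 3.85, 2.95 and 3.72 with Wnt1. Against Col1a1, the main fibrillar collagen chain of fibroblasts, it was 2.03, 2.53 and 2.66 in controls and 1.38, 0.869 and 1.06 with Wnt1. Neither pair of groups overlapped. Pdgfrb rose by 0.83 ± 0.20 and Col1a1 by 2.93 ± 0.27 (edgeR adjusted p = 0.0113 and 0.000192), and Acta2 lay between these 2 genes. The remaining tested fibroblast markers, some named after their values were seen, lay on both sides of Acta2 (1.78). Log2 fold changes were 1.15 ± 0.18 for Dcn, 1.26 ± 0.15 for Pdgfra and 1.70 ± 0.36 for Lum, the last within its SE of Acta2. Larger values were 2.09 ± 0.20 for Fbln2, 2.50 ± 0.23 for Col1a2, 2.59 ± 0.50 for Gli1 and 2.69 ± 0.18 for Dpt. Larger still were 2.86 ± 0.24 for Col3a1 and 4.64 ± 0.27 for Mfap5, while Pi16 was not called (-0.52 ± 0.24). Which cells the contractile transcripts come from was not tested. The 18 markers of striated muscle, which also makes Tpm1, Tpm2 and Des, summed to between 1.79 and 2.37 CPM in controls and between 2.79 and 3.79 CPM with Wnt1, without overlap. Of the 2 that were tested, Neb was called higher (2.12 ± 0.56, edgeR adjusted p = 0.0167) and Ttn was not called. Neb had only 6, 1 and 3 counts in controls and 18, 25 and 15 with Wnt1. Its call was lost in 3 of the 13 alternatives that tested it. Acta1, the skeletal muscle actin, had 0, 0 and 2 counts in controls and 10, 19 and 14 with Wnt1, while Myh2, Tnnc2 and Myog were at 0 in every library. The part of striated muscle in the results was not tested.

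**Figure D4:**
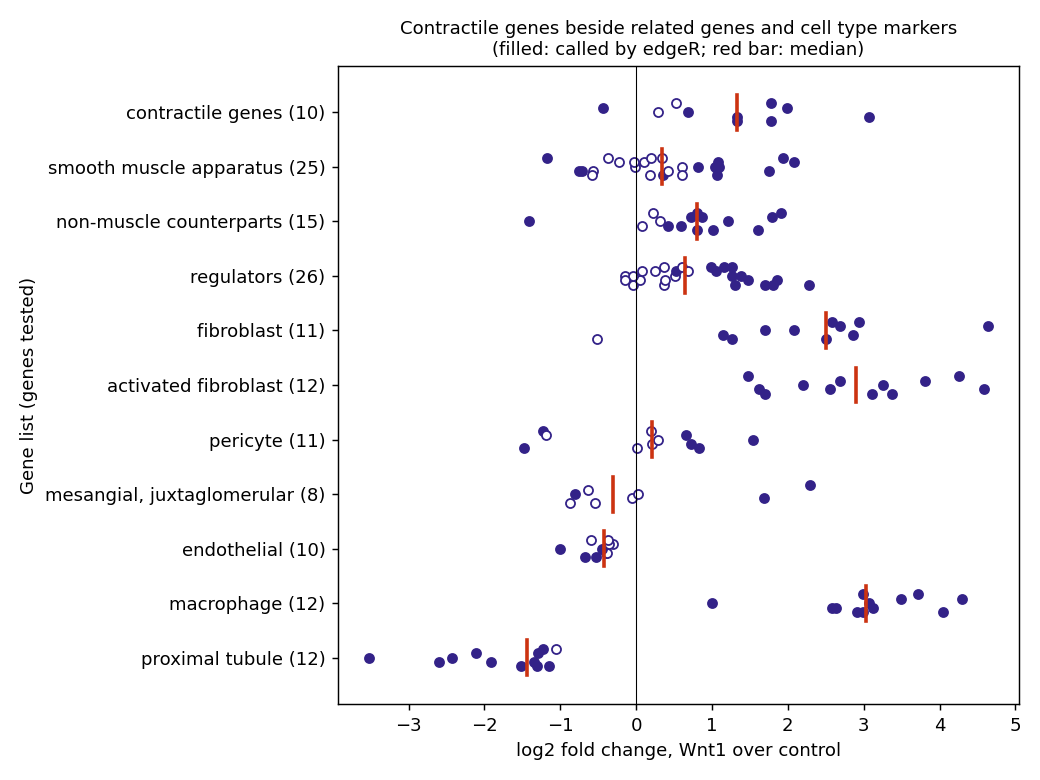
Log2 fold change, Wnt1 over control, of each tested gene in the contractile set and in 10 related lists, with filled points for edgeR calls and red bars at list medians. The contractile genes, with a median of 1.33, spread from -0.44 to 3.07, while fibroblast markers have a median of 2.50 and pericyte markers of 0.21.

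The genes outside these lists whose profile over the 6 libraries lay nearest that of Acta2 were Tubb6, Efhd2, Pltp, Myo1g and Insyn1. Likeness was the mean absolute difference in log2 CPM relative to each gene's control mean, among 12410 genes with an FPKM of at least 1 in either group. It was 0.0672 for Tubb6, a tubulin, 0.0713 for Efhd2, a calcium-binding actin regulator, 0.0720 for Pltp, the phospholipid transfer protein, 0.0803 for Myo1g, a myosin of leukocytes, and 0.0813 for Insyn1. Among the contractile genes, Tagln (0.147) and Tpm1 (0.156) were nearest to Acta2 and Myh11 (1.18) was farthest.

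**Figure D5:**
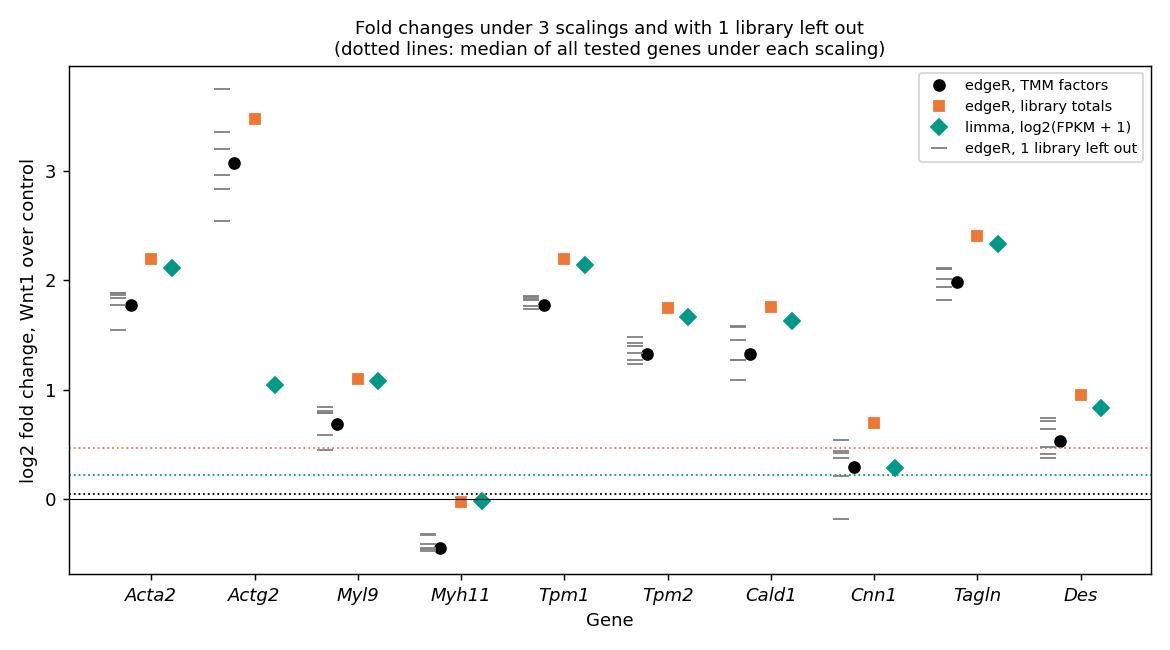
Log2 fold change of the 10 genes under edgeR with TMM factors, edgeR with library totals and limma on log2(FPKM + 1), with grey dashes for edgeR with 1 library left out and dotted lines at the median of all tested genes. Acta2, Tagln, Tpm1, Tpm2 and Cald1 stay above 1 throughout, and Myh11 lies below every dotted line, from -0.47 to -0.02.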

How the data were processed

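The submitters' processing notes name mm10 as the build and RSEM, HISAT2, StringTie (1.3.1), Bowtie2 (2.2.8) and fastp (0.18.0) as tools. What each did, the annotation and the use of strand were not given in the sources used. For each gene and library the deposited table holds an expected count, which is an estimated read number. Of these, 9.02% of these were not whole to within 1e-06, and all were rounded. They also deposited FPKM values, scaled by transcript length and library total. Depth was as given above. The SDs and standard errors reflect scatter between these libraries, and cover differences between animals only if the libraries are separate animals.

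In R 4.3.3, edgeR 4.0.16 (filterByExpr, TMM, robust quasi-likelihood test, two-sided, Benjamini-Hochberg over 14432 genes) compared Wnt1 with control, 3 libraries each. Standard errors come from the coefficient and its F statistic. Alternatives were DESeq2 1.42.0, other factors and filters, limma 3.58.1 on log2(FPKM + 1) or log2(FPKM + 0.1), and leaving out each library. Leaving out both libraries numbered 3 was chosen after seeing the data. The scripts were tested on simulated data. Members, lists and pairs were chosen with earlier results of these data known, and lists carry no test of their own. Named were all 10 members, pair partners, Wnt1, Srf, Myocd, Mrtfa, Mrtfb, the TGF-beta ligands, Mylk, Lmod1, Smtn, up to 4 called genes with the smallest p from each list, and the 5 genes most like Acta2. Coordinates are GRCm38, the assembly mm10 names, from GENCODE M21.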

Additional observations from a re-analysis of the deposited data

How the results depend on the processing

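The count of contractile genes called higher, 7, lay between 6 and 8 under all 16 alternatives, and Acta2, Actg2, Tagln, Tpm1, Tpm2 and Cald1 were called higher in every alternative that tested them. The 1 gene called lower, Myh11, was at 0 calls with library totals, upper-quartile factors, no filter and the 3 FPKM fits, and at 0 to 1 with a library left out. Genes called higher over the whole table went from 3239 to 6348 with library totals and to 5144, 5139 and 5949 by limma on log2(FPKM + 1), log2(FPKM + 0.1) and log2(FPKM + 1) with no filter. The count of genes called lower went from 2697 to 1288, 1238, 1234 and 1273 in the same order, and to 4432 without both libraries numbered 3. With 1 library left out, these counts lay between 2681 and 4165 for higher and between 1797 and 3977 for lower, the highest of both without Wnt1 replicate 3 and the lowest without Wnt1 replicate 2 and control replicate 2 in turn. Cnn1, Srf and Smtn, none of them called with TMM factors, changed sign as follows. Cnn1 (0.29) lay between -0.18, without Wnt1 replicate 3, and 0.54 with 1 library left out, and was -0.33 without both libraries numbered 3. Srf (-0.04) was 0.38 with library totals, 0.063 with upper-quartile factors, 0.018 with no filter, 0.29, 0.30 and 0.29 in the 3 FPKM fits, and between -0.196 and 0.0779 with 1 library left out, above 0 without control replicate 1, control replicate 3 or Wnt1 replicate 1. Smtn (-0.01) was 0.40, 0.0883 and 0.0448 under those factors and that filter, 0.00068 with a filter of 1 CPM in all 3 libraries of a group, 0.39, 0.40 and 0.39 in the FPKM fits, and between -0.15 and 0.0903 with 1 library left out, above 0 without control replicate 1 or 3 or Wnt1 replicate 1 or 2. The log2 ratio of Myl9 to Myl12a (-0.05) lay between -0.22 and 0.0828 with a library left out, above 0 without control replicate 1 or Wnt1 replicate 2. No other pair changed direction. No paired analysis was possible because the replicate numbers follow the order of the records and pair nothing. Depth limits Actg2, Cnn1 and Myocd, which had between 2 and 76 counts in each control library.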

Other observations

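Some genes of the contractile and adhesion machinery were lower with Wnt1, named here after their values were seen. Tns1, tensin, which ties actin to integrin adhesions, was the most abundant of the further smooth muscle genes per library, with 49738 to 57492 counts in controls and 27235 to 33349 with Wnt1 (log2 fold change -1.17 ± 0.15, edgeR adjusted p = 0.00064). Myh14, a non-muscle myosin heavy chain of epithelia, fell by 1.41 on the log2 scale (SE 0.18, edgeR adjusted p = 0.000613) while Myh9 and Myh10 were called higher. Csrp2, a LIM protein of smooth muscle, was lower at -0.71 ± 0.15 on the log2 scale (edgeR adjusted p = 0.00717), and its relative Csrp1 was higher at 1.06 ± 0.19 (adjusted p = 0.0027).

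Krt5, a basal urothelial keratin, had 21, 40 and 30 counts in controls and 110, 68 and 176 with Wnt1, and it was the only urothelial marker called by edgeR (1.61 ± 0.43, adjusted p = 0.0178). The call was lost without control replicate 1 (adjusted p = 0.0518) or control replicate 3 (0.051), and 2 urothelial markers were called lower without Wnt1 replicate 3. Psca, another urothelial gene that was not called (edgeR adjusted p = 0.55), had 1111 counts in Wnt1 replicate 3 against 136 and 119 in Wnt1 replicates 1 and 2.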
